A study of Mus musculus with 8 samples.

Results

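Pulmonary surfactant is the film of lipid and protein that lowers surface tension in the alveoli of the lung. It is made by alveolar type II cells, which store it in lamellar bodies and secrete it. The 10 genes described here encode parts of that system: the surfactant proteins (Sftpa1, Sftpb, Sftpc and Sftpd), lamellar body proteins (Abca3, Lamp3 and Napsa), an apical phosphate transporter (Slc34a2) and the transcription factors Nkx2-1 and Etv5. They were taken, by gene symbol in a probe table, from 15967 named genes, and together they have 14 probes. That probe table belongs to another platform than the chip in the labels. The genes were selected on their array levels in these same data, so those levels are a description and carry no test.

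The data came from 8 Illumina mouse bead arrays, 1 biotin-labelled RNA sample each. The labels give 4 groups of 2 arrays, all from female mice of the strain 129/BL6: wild type untreated, wild type with acLDL, IRAK4 KI untreated and IRAK4 KI with acLDL. The IRAK4 KI mice, KI below, carry a kinase-inactive version of IRAK4, which acts downstream of Toll-like receptors. The acLDL groups were given 100 ug/ml acetylated low-density lipoprotein for 24 hours. By the labels every sample is macrophages grown from bone marrow for 5 days in medium conditioned by L929 cells. The labels do not say whether samples within a group are from separate animals or cultures. A p-value here therefore reflects sample-to-sample spread alone, and that spread may be technical. Values are background-subtracted, quantile-normalized intensities as deposited. A probe counted as above noise when it exceeded 36.7 intensity units, which is 3 times the noise read from the negative values.

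The label of bone marrow-derived macrophages and the levels of these genes did not match. All 10 genes had a probe above noise on all 8 arrays, at intensities from 186 to 46070, and did so too at limits of 2 and 5 times the noise. The genes were selected on these levels, so the counts above noise follow from that choice. Surfactant proteins B and C and the factor Nkx2-1 are known as genes of epithelium, not of macrophages. Of the 14 probes, 12 exceeded the limit on every array. The other 2, 1 of the 3 for Lamp3 and 1 of the 2 for Nkx2-1, exceeded it on none. Over the whole chip, 39.5% of 24613 probes were above noise on all 8 arrays, a share given for scale and not as a test. The groups are called by their labels below, and how RNA of these genes came to be in the samples was not tested. In RNA from a mixture, fewer cells of a type and less RNA per cell cannot be told apart. The names rest on probe identifiers, because the probe table belongs to another platform than the mouseRef-8 v2 chip in the labels.

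Sequence upstream of the start is shown for Sftpa1 and Sftpb, a collectin and a hydrophobic surfactant protein, since the product of the member Nkx2-1 is known to bind the promoters of surfactant genes. Each run is the 250 bases before the RefSeq start (GRCm38.p6), 5′ to 3′ on the strand of the gene. Capitals mark the letters CTCAAG, which hold the core that NKX2-1 binds, or TGTTTNC, a forkhead motif, on either strand. The Sftpa1 window is chr14:41131538-41131787 and the Sftpb window chr6:72304360-72304609, both on the plus strand.
Sftpa1: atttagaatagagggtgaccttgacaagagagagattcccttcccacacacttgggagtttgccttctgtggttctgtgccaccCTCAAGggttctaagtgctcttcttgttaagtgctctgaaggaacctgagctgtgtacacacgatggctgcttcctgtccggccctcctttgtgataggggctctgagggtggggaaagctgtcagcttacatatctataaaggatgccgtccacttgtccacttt
Sftpb: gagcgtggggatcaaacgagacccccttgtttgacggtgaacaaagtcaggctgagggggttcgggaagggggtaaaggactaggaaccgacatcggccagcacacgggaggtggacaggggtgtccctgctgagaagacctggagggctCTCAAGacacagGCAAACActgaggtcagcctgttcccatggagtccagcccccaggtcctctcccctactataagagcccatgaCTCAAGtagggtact

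The Sftpb window held CTCAAG at 2 places and the forkhead letters at 1, and the Sftpa1 window held CTCAAG at 1. Of the 7 members with a RefSeq window in the table used, these 2 held CTCAAG, and 3 (Sftpb, Lamp3 and Etv5) held TGTTTNC. The same letters stood in 13.3% and 17.8% of all 32851 windows of this length. A match is thus a description and does not by itself show a binding site.

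The hydrophobic surfactant proteins come first. Sftpc encodes surfactant protein C, a membrane-embedded peptide made in the lung by type II cells. Its intensity was 30721 and 39023 in untreated wild type, 38288 and 42212 in wild type with acLDL, 37478 and 39023 in untreated KI, and 36374 on both KI arrays with acLDL (replicate 1 then 2 here and below). The lowest value was on untreated wild type replicate 1 and the highest on wild type acLDL replicate 2, a range of 1.37-fold. Sftpc stood at positions 4 to 13 of an array counted from its brightest probe. Quantile normalization gives a position nearly the same value on every array (sorted arrays differ by at most 1.4 units), so at this end an intensity can move only in steps between positions. This is why equal values recur. Sftpb encodes surfactant protein B, which is needed for lamellar bodies to form. Its intensity was 7761 and 7315 in untreated wild type, 7028 and 7860 in wild type with acLDL, 7906 and 11129 in untreated KI, and 6748 and 7571 in KI with acLDL. A single array, untreated KI replicate 2, stood apart at the top, while the other 7 lay between 6748 and 7906.

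Sftpa1 and Sftpd encode the collectins, carbohydrate-binding proteins that take part in innate defence of the lung. Sftpd intensities were 39023 and 43324 in untreated wild type, 46070 and 36374 in wild type with acLDL, 36374 and 34152 in untreated KI, and 34152 and 39023 in KI with acLDL. Both wild type arrays without acLDL were above both KI arrays without it, and the acLDL groups overlapped. Sftpa1 intensities were 5691 and 5389 in untreated wild type, 5684 and 4345 in wild type with acLDL, 5087 and 5258 in untreated KI, and 5353 and 6259 in KI with acLDL. The lowest value was on wild type acLDL replicate 2, 1.44-fold below the highest, on KI acLDL replicate 2.

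Abca3 encodes the transporter that loads phospholipid into lamellar bodies. Its intensity was 244 and 236 in untreated wild type, 220 and 247 in wild type with acLDL, 186 and 245 in untreated KI, and 231 and 334 in KI with acLDL. Its values ranged 1.79-fold in deposited intensity, and both ends were KI arrays. Lamp3 encodes a lysosome-associated membrane protein of lamellar bodies, known also from mature dendritic cells. The brightest of its probes gave 1466 and 1519 in untreated wild type, 1561 and 2014 in wild type with acLDL, 1797 and 2291 in untreated KI, and 1552 and 2255 in KI with acLDL. Untreated wild type held the 2 lowest values, and replicate 2 was the higher one in all 4 groups. The second Lamp3 probe ranged from 739 to 1098, with its lowest value on wild type acLDL replicate 1 and its highest on KI acLDL replicate 2. The 2 probes thus had different lowest and highest arrays, but replicate 2 was the higher one in all 4 groups on both.

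Napsa encodes napsin A, an aspartic protease that takes part in processing surfactant protein B. Its brighter probe gave 4533 and 4053 in untreated wild type, 4969 and 5631 in wild type with acLDL, 4791 and 5353 in untreated KI, and 4186 and 5018 in KI with acLDL. On that probe the wild type groups did not overlap, with acLDL above untreated, which the test below did not call. The second Napsa probe gave 3342 and 3402 in untreated wild type against 3014 and 3418 with acLDL, so the wild type groups overlapped there. In untreated KI it gave 3222 and 4969. The higher of these, on KI untreated replicate 2, was the top of that probe over the 8 arrays, as it was for Sftpb and for the used Lamp3 probe.

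Slc34a2 encodes a sodium-dependent phosphate transporter of the apical membrane. Its intensity was 360 and 365 in untreated wild type, 324 and 327 in wild type with acLDL, 364 and 294 in untreated KI, and 351 and 347 in KI with acLDL. Its range was narrow, from 294 on untreated KI replicate 2 to 365 on untreated wild type replicate 2, which is 1.24-fold. Nkx2-1 encodes a transcription factor of lung and thyroid that activates surfactant genes. Its intensity was 1851 and 1348 in untreated wild type, 1601 and 1609 in wild type with acLDL, 1451 and 1360 in untreated KI, and 1493 and 1464 in KI with acLDL. The highest and the lowest Nkx2-1 value were thus the 2 replicates of 1 group, untreated wild type. Etv5 encodes an ETS factor that acts downstream of fibroblast growth factor signalling and maintains type II cells in the mouse. Its intensity was 521 and 606 in untreated wild type, 646 and 668 in wild type with acLDL, 718 and 703 in untreated KI, and 646 and 649 in KI with acLDL. Untreated wild type was below all other arrays, and untreated KI above all others.

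**Figure D1:**
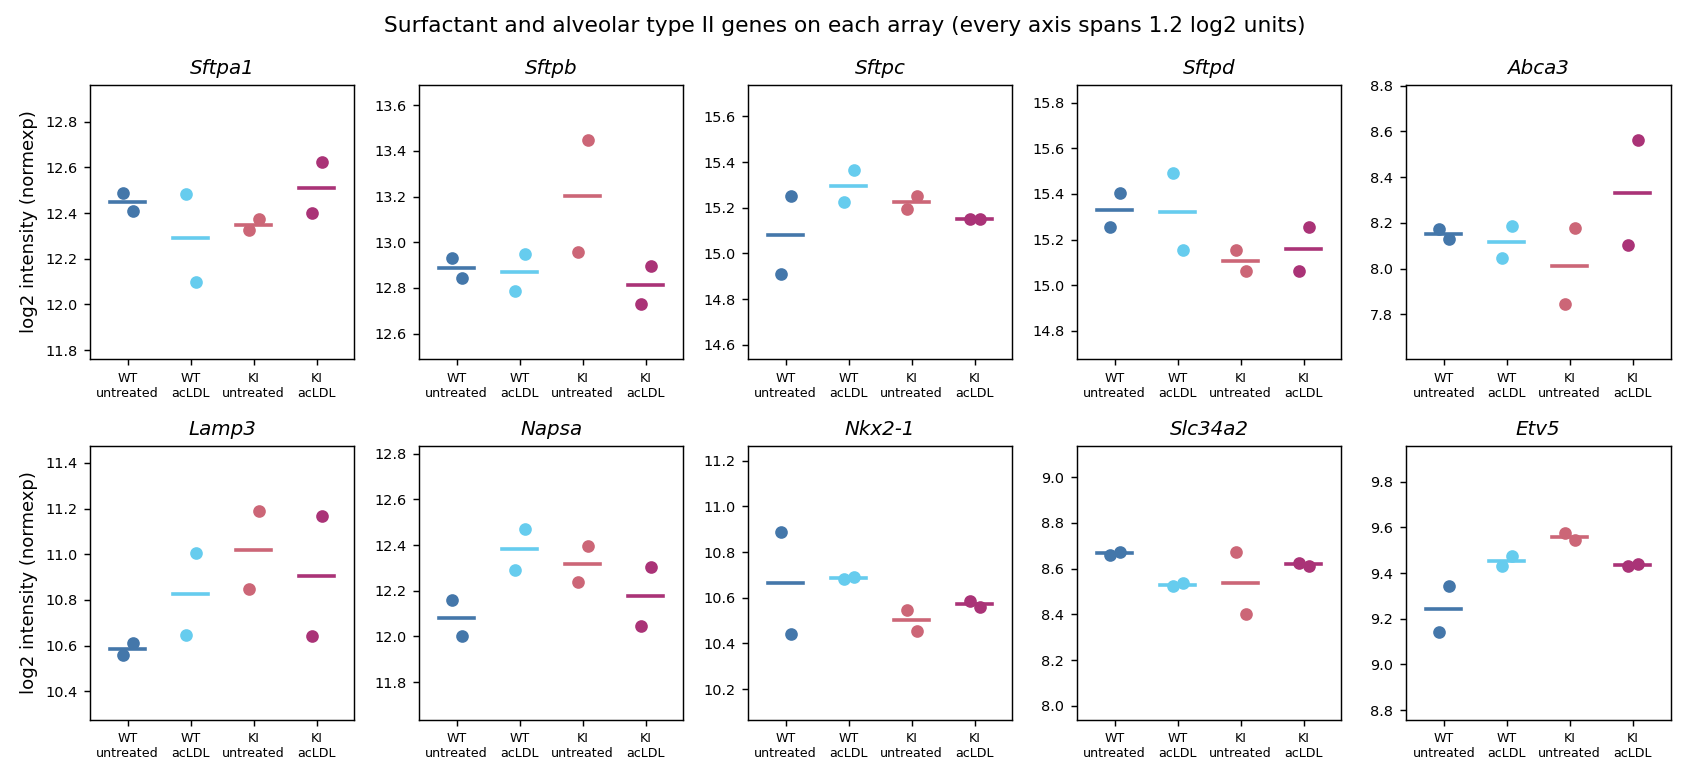
Log2 intensity after normexp correction (vertical axis) of the probe used for each of the 10 genes, by group (horizontal axis); points are the 2 arrays of a group and bars their mean, and each panel spans the same number of log2 units. In most panels the 2 arrays of a group lie as far apart as the groups do, with Etv5 the clearest exception.

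Set in order by mean level, 8 of the 30 pairs of neighbouring groups did not overlap, against 28.8% of such pairs over all 10187 items of the fit described below. All 3 neighbouring pairs overlapped for Sftpd, Abca3 and Napsa. For Sftpa1 the order was KI with acLDL, untreated wild type, untreated KI and wild type with acLDL, with no overlap between the middle pair. For Sftpc it was wild type with acLDL, untreated KI, KI with acLDL and untreated wild type, again apart between the middle pair. For Sftpb the top group, untreated KI, stood apart from untreated wild type next to it, and for Slc34a2 the top group, untreated wild type, from KI with acLDL. The lowest group stood apart for Lamp3 (untreated wild type) and Nkx2-1 (untreated KI). Etv5, 1 of the 10 genes, had 2 such gaps, below untreated KI and above untreated wild type, while 20.4% of all items had 2 or 3.

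The spread between arrays was of the usual size for this chip. The SD of log2 intensity over 8 arrays had a median of 0.15 over the 10 genes, from 0.095 for Slc34a2 to 0.26 for Lamp3. Over the 8560 items (named genes and unnamed probes) above noise on all 8 arrays the median was 0.16. The SD within groups, pooled over the 4 groups, had a median of 0.16 over the 10 genes and 0.13 over those 8560 items. For 5 of the 10 genes, Sftpa1, Sftpc, Abca3, Nkx2-1 and Slc34a2, the pooled SD within groups was larger than the SD over all 8 arrays. Etv5 had the smallest SD within groups, 0.074, against 0.13 over all arrays.

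Whether acLDL or the knock-in changed these genes was then read from a limma fit over 10187 items, with 4 residual degrees of freedom and Benjamini-Hochberg adjustment over all items. None of the 10 genes passed an adjusted p of 0.05 in any of 6 comparisons, with 95% intervals, not adjusted for the number of genes, given below. The comparisons share arrays and are not independent of each other.

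In wild type, acLDL against untreated gave log2 differences from -0.15 for Sftpa1 to 0.30 for Napsa, with a median of 0.0076 over the 10 genes and 0.0091 over all items. Of all items 0.177% were called (12 higher, 6 lower), and 0 of the 10 genes (lowest limma adjusted p = 0.44, for Napsa). At an unadjusted p under 0.05, 0 of the 10 passed as well, against 1225 of all 10187 items. The interval was -0.094 to 0.52 for Sftpc, -0.41 to 0.37 for Sftpb and -0.013 to 0.61 for Napsa, so changes of that size in either of the first 2 remain possible. The 2 groups did not overlap for 4 of the 10 genes (Lamp3, Napsa and Etv5 higher, Slc34a2 lower), against 41.8% of all items.

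In KI, the same comparison ran from -0.39 for Sftpb to 0.32 for Abca3, with a median of -0.011 beside -0.0077 over all items. Calls were made for 0.0196% of all items and for 0 of the 10 genes (lowest limma adjusted p = 0.77). An unadjusted p under 0.05 was found for 658 of all 10187 items and, of the 10 genes, for Sftpb alone. Sftpb had a log2 difference of -0.39 (SE 0.17, 95% interval -0.78 to -0.0029, limma adjusted p = 0.77). That difference was -0.14 without untreated KI replicate 2, the array on which Sftpb stood apart, and -0.64 without untreated KI replicate 1. The groups did not overlap for 5 of the 10 genes (Sftpa1 and Nkx2-1 higher, Sftpb, Sftpc and Etv5 lower), against 39.0% of all items.

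The effect of acLDL in KI was set against that in wild type in the same fit. The difference of effects ran from -0.44 for Napsa to 0.36 for Abca3, with a median of -0.12 over the 10 genes and -0.019 over all items. In this test 0.0491% of all items were called and 0 of the 10 genes. Of the 10, Napsa alone had an unadjusted p under 0.05, as did 875 of all 10187 items. Its log2 difference was -0.44 (SE 0.19, limma adjusted p = 0.58), which rests on the brighter Napsa probe. On the second probe the mean log2 intensity was lower with acLDL in both genotypes. It was 11.74 untreated and 11.67 with acLDL in wild type, and 11.98 and 11.88 in KI. For Sftpc the difference of effects was -0.29 (95% interval -0.72 to 0.15), and for Nkx2-1 it was 0.050 (-0.44 to 0.54).

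**Figure D2:**
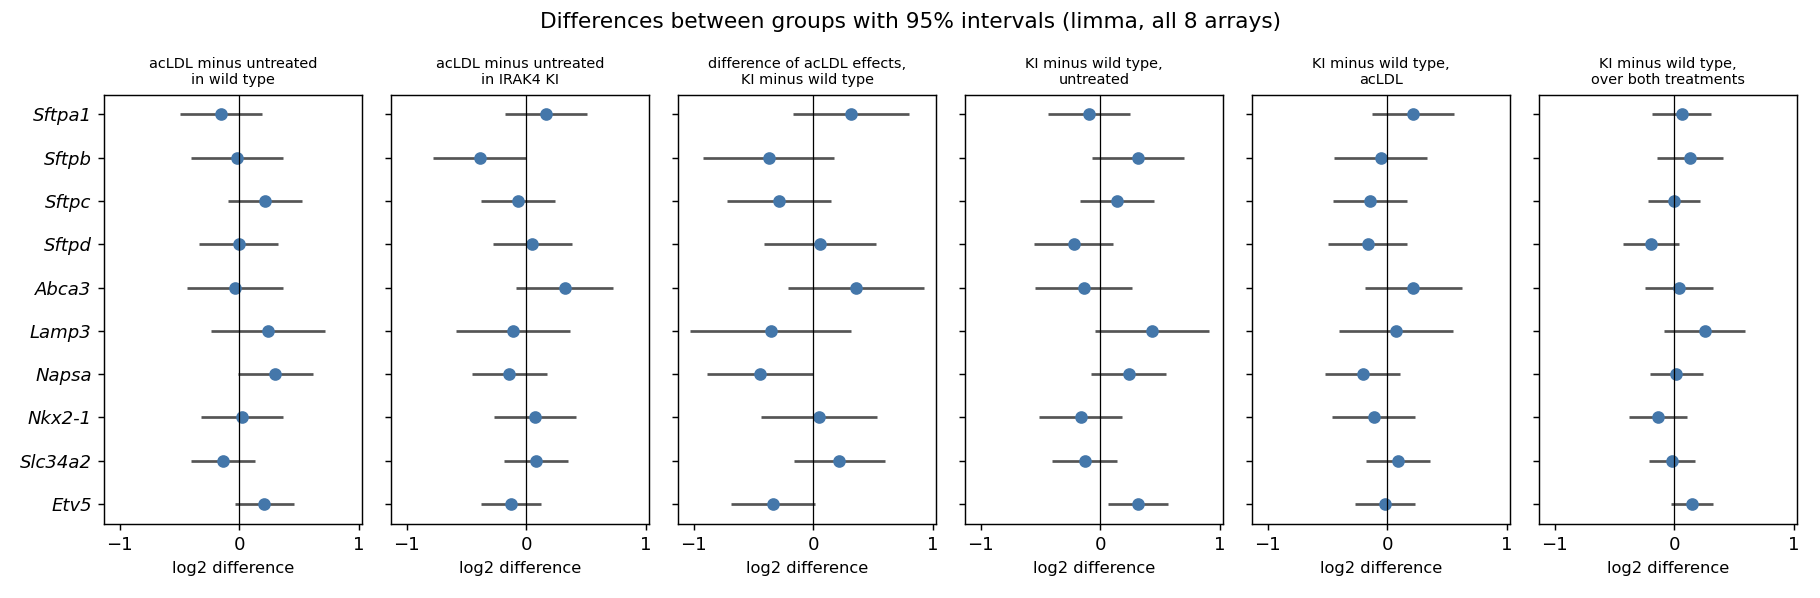
Log2 difference (horizontal axis) of each of the 10 genes (vertical axis) in 6 comparisons; points are limma estimates and lines their 95% intervals without adjustment for the number of genes. The estimates lie between -0.44 and 0.43, and none passed the adjusted threshold.

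The genotypes were compared without acLDL, with it, and over both. Between untreated arrays the 10 genes ran from -0.22 for Sftpd to 0.43 for Lamp3 (KI minus wild type), with a median of 0.023 beside -0.0076 over all items. Of all items 0.00982% were called, and 0 of the 10 genes. Etv5 had the lowest p of the 10, at a log2 difference of 0.32 (SE 0.11, 95% interval 0.067 to 0.57, limma adjusted p = 0.25). It was the 1 gene of the 10 with an unadjusted p under 0.05, against 1524 of all 10187 items. Its difference was 0.21 to 0.42 on leaving out each array in turn. The untreated groups did not overlap for 6 of the 10 genes (Sftpb, Lamp3, Napsa and Etv5 higher in KI, Sftpa1 and Sftpd lower), against 49.4% of all items. Among the arrays with acLDL, Etv5 differed by -0.020 (95% interval -0.27 to 0.23).

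Among arrays with acLDL the range was -0.21 for Napsa to 0.22 for Sftpa1, with a median of -0.038 beside -0.029 over all items. Here 0.216% of all items were called and 0 of the 10 genes. An unadjusted p under 0.05 was found for 2218 of all 10187 items and 0 of the 10. Groups did not overlap for 3 of the 10 (Slc34a2 higher in KI, Sftpc and Nkx2-1 lower), against 55.1% of all items. Over both treatments, with 4 arrays against 4, the range was -0.19 for Sftpd to 0.25 for Lamp3 and the median 0.028 beside -0.017. Of the 10, 0 had an unadjusted p under 0.05 over both treatments, against 2709 of all 10187 items. That comparison called 3.39% of all items (135 higher and 210 lower in KI) and 0 of the 10 genes. Its total of 345 fell to between 0 and 10 on leaving out any 1 array other than wild type acLDL replicate 2, without which it was 598. For no gene of the 10 did the 4 KI and the 4 wild type arrays separate, against 14.8% of all items. The interval was -0.22 to 0.22 for Sftpc, -0.14 to 0.40 for Sftpb and -0.43 to 0.041 for Sftpd. By design these intervals are narrower for every gene than those of the treatment comparisons, since more arrays enter each side.

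The wider program of type II cells was read from 38 further genes, of which 36 had a probe. The limit was exceeded on all 8 arrays by 30 of them, and on no array by 6: Cd36, Egfl6, Erbb3, Pga5, S100g and Slco4c1. By the naming rule, the genes given are Cxcl15, a chemokine of lung epithelium, with a log2 intensity of 13.81 ± 0.28, Scd1, a stearoyl-CoA desaturase, at 13.46 ± 0.27, Chil1, a chitinase-like protein, at 13.34 ± 0.24, and Cldn18, a tight junction protein of alveolar epithelium, at 12.59 ± 0.11 (SD over 8 arrays). These levels are not compared between genes, since probes differ in brightness. Genes chosen after their values were seen fill in the other roles. Lpcat1, the acyltransferase that remodels surfactant phosphatidylcholine, ranged from 403 to 675, and Ctsh, a cathepsin that takes part in processing surfactant protein B, from 1620 to 2898. The factors Foxa1 and Gata6, which act on surfactant promoters, ranged from 836 to 1112 and from 572 to 1014.

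Of all items, 0.00982% to 3.39% were called in the 6 comparisons. Of the 30 genes tested, 0 were called in each, which lies near those shares. Their median log2 difference was -0.010 for acLDL in wild type, -0.037 for acLDL in KI and 0.029 for KI against wild type over both treatments, with 13, 14 and 20 of 30 above 0. Fasn, a fatty acid synthase, had a difference of 0.47 (limma adjusted p = 0.064) and Zdhhc3, a palmitoyltransferase, one of -0.35 (limma adjusted p = 0.055) in the last of these. Both were chosen after their values were seen.

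**Figure D3:**
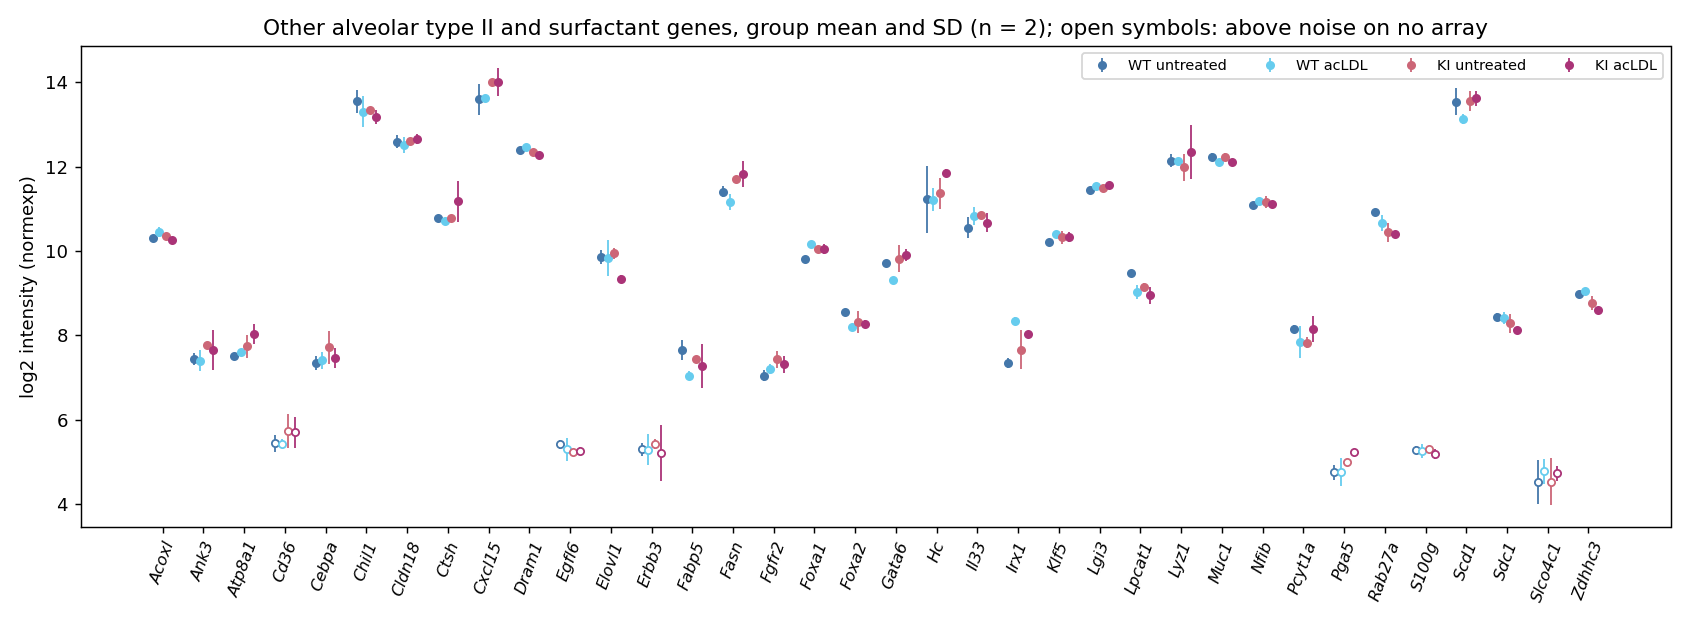
Log2 intensity after normexp correction (vertical axis) of 36 other alveolar type II and surfactant genes (horizontal axis); points are group means and lines the SD of 2 arrays. The 30 genes with filled symbols were above noise on all 8 arrays and the 6 with open symbols on none, and levels are to be compared only within a gene.

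Genes of other lung cell types accompanied the surfactant genes. Of 11 alveolar type I genes with a probe, 10 were above noise on all 8 arrays, among them Ager (log2 intensity 14.55 ± 0.05), Emp2 (13.60 ± 0.10), Cav1 (13.16 ± 0.13) and Pdpn (12.64 ± 0.16). Airway club cell genes were above noise throughout for 8 of 11, with Cbr2 at 15.27 ± 0.11, Scgb1a1 at 14.93 ± 0.09, Hp at 14.06 ± 0.14 and Cyp2f2 at 13.97 ± 0.09. The endothelial count was 13 of 14 (Cldn5 at 14.05 ± 0.15), the ciliated cell count 6 of 10, the pan-epithelial count 9 of 10 and the fibroblast and smooth muscle count 10 of 14 (all SD over 8 arrays). Bone marrow-derived macrophage genes were above noise throughout for 14 of 20 with a probe. The other 6, Itgam, Fcgr1, Cybb, C5ar1, Msr1 and Cd36, were above noise on no array. Cd68 and Csf1r of that list had no probe. In the type I and club cell lists, Hopx and Cckar were above noise on no array. Of the 14 macrophage genes above noise throughout, only Lyz2 is named here, so the names given lean to the genes that were absent. Lyz2 encodes a lysozyme of macrophages that type II cells of the mouse also express, and was at 14.46 ± 0.29.

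Genes of other organs gave a different count. Over 6 lists for thyroid, liver, kidney, pancreas, intestine and stomach, and brain, 48 genes had a probe, 5 were above noise on all 8 arrays, 6 on some and 37 on none. The 5 were Iyd of the thyroid list (161 to 226), Amy2a5 of the pancreas list (88 to 166), Cdx2 of the intestine list (51 to 66), and Mbp (54 to 105) and Snap25 (42.5 to 67.2) of the brain list. Nkx2-1 is known to act in thyroid and ventral forebrain as well as lung. The thyroid genes Tg, Slc5a5, Tshr, Pax8 and Dio1 were above noise on no array. On no array were 8 of 9 liver genes, Alb among them, and 8 of 8 kidney genes above noise. Of the genes in the other lung lists, 0 were called for acLDL in either genotype, beside 0.177% of all items in wild type and 0.0196% in KI.

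**Figure D4:**
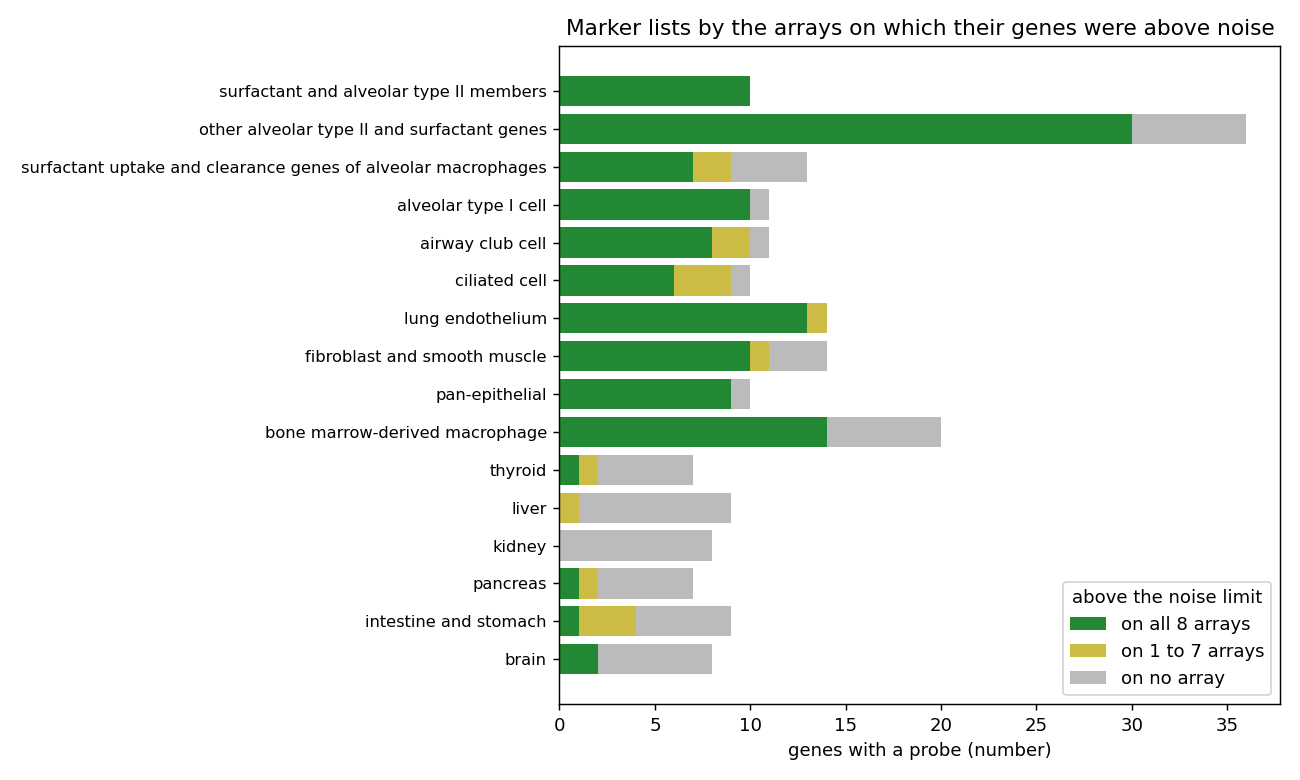
Number of genes with a probe (horizontal axis) in each marker list (vertical axis), divided by whether they were above noise on all 8 arrays, on 1 to 7 or on none. The lung cell lists are mostly above noise on all 8 arrays (10 of 11 for alveolar type I cells, 13 of 14 for endothelium), and the lists of other organs mostly on none (8 of 8 for kidney).

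Over both treatments 6 lung genes of other lists were called between the genotypes, and 0 of the 10 surfactant and type II genes. Of all items 3.39% were called, and 0 of 10 lies near that share. The other lists had 10 type I, 10 club cell, 9 ciliated, 13 endothelial, 11 fibroblast and smooth muscle and 9 pan-epithelial genes tested. Higher in KI were Cav2, a caveolar protein of the type I list, with a log2 difference of 0.65 (limma adjusted p = 0.043), and the collagen gene Col3a1 of the fibroblast list, with 0.62 (limma adjusted p = 0.034). Lower were Gprc5a of the type I list (-0.69), the ciliary gene Ccdc113 (-0.55), and the epithelial genes Krt18, a keratin (-0.53), and Elf3, an ETS factor (-0.44), with limma adjusted p from 0.043 to 0.046. Each of these 6 calls held in 1 of 8 fits that left out an array, the one without wild type acLDL replicate 2, and the highest adjusted p among the 8 fits was 0.13 to 0.15. All 6 were lost without background correction (limma adjusted p 0.076 to 0.087) and without a filter (0.099 to 0.13). Elf3 was also lost with the filter at 2 times the noise (limma adjusted p = 0.051) and with the replicate number as a block (0.052). Col3a1 was also called among arrays with acLDL (1.36, limma adjusted p = 0.0033, or up to 0.089 without an array) and in the difference of acLDL effects (1.48, limma adjusted p = 0.028, or 0.066 to 0.31 without an array). Gprc5a was called among arrays with acLDL too (-1.13, limma adjusted p = 0.040, or 0.062 to 0.23 without an array). The call of Col3a1 in the difference of effects and that of Gprc5a with acLDL were lost without background correction (limma adjusted p = 0.085 and 0.12), without a filter (0.12 for both) and with the replicate block (0.071 and 0.063), and the latter also with only the groups compared (0.13). Whether these calls and the absence of calls among the surfactant genes differ was not tested. The summed intensity of the 6 ciliated cell genes above noise on all 8 arrays was 8390 to 9964 in untreated wild type, 7124 to 7882 in wild type with acLDL, 6463 to 6847 in untreated KI and 4532 to 5867 in KI with acLDL. For these genes and for 3 other lung lists, every KI array was on one side of every wild type array. The club cell and endothelial sums overlapped between the genotypes. Of all single items 14.8% separated in this way, and no such share was taken for sums. The sum over 10 type I genes was 57204 to 60786 in wild type and 62617 to 64296 in KI. A sum follows its brightest probes, here Ager at 22823 to 25147. Of these 10 genes 9 were higher in KI over both treatments, and Gprc5a was lower. Over 10 fibroblast and smooth muscle genes it was 16820 to 23889 and 25460 to 26346, and over 9 pan-epithelial genes 20594 to 23494 and 18368 to 19639. The same sum over the 10 surfactant and type II genes was 92171 to 103180, 101290 to 106390, 96151 to 99810 and 91086 to 99294, in the order of groups given for the ciliated genes, with KI and wild type arrays overlapping. The part of the other cell lists in the values of the 10 genes was not tested.

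The shared movement of the 10 genes was small. After centring each gene on its own mean, the mean of the 10 ran from -0.083 on KI acLDL replicate 1 to 0.096 on KI acLDL replicate 2 (log2), so both ends belonged to 1 group. Among 7437 other named genes above noise on all 8 arrays, those most like this profile were Rab15 (Pearson r = 0.95, Spearman rho = 0.90, n = 8 arrays), Plce1 (r = 0.94, rho = 0.88), 0610010K14Rik (r = 0.93, rho = 0.90), Srpk2 (r = 0.93, rho = 0.95) and Abca9 (r = 0.92, rho = 0.98). Without the 2 arrays farthest from the median, KI untreated replicate 2 and KI acLDL replicate 2, r lay between 0.83 and 0.93 for these 5 genes. They were picked as the highest of that many genes over 8 arrays, so r is a description of the choice, with no test.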

How the data were processed

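The deposited table holds intensity values of 8 arrays on a linear scale, for which the submitters' processing notes name BeadStudio with no version. About 29.2% of values are below 0 and sorted columns differ by at most 1.4 units, so background subtraction and quantile normalization were inferred from the values. Another table, with 16 value columns that no sample label names, was not used. Intensities were corrected with normexp (limma 3.58.1, R 4.3.3, offset 16) and log2 transformed. Items needed values above 3 times the noise (root mean square of negative values, 12.2 units) on at least 2 arrays, which kept 11819 of 24613 probes. The brightest probe stood for a gene, giving 10187 items. Of the probes, 20984 had 1 gene symbol, 1 several and 3628 none, and 20968 matched the RefSeq gene table. All 8 arrays entered 1 limma fit of 4 group means with no replicate block, which was tested on simulated data. The number of arrays limits the precision.

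Named were the 10 genes, up to 4 of the brightest and all called genes of other lung lists, genes of other organs above noise on all 8 arrays, and the 5 genes with the most similar profile. Any further gene was named once its values were known. The members and lists were chosen with earlier results of these data known. Promoter windows came from RefSeq (GRCm38.p6). Plots were drawn with matplotlib 3.10.9.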

Additional observations from a re-analysis of the deposited data

How the results depend on the processing

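The count of the 10 genes called was 0 in each comparison under every alternative run (19 for 4 of the comparisons, 18 for the difference of effects and the genotype over both treatments), and their count above noise on all 8 arrays was 10 at limits of 2, 3 and 5 times the noise. The lowest adjusted p of any was 0.11, for Sftpd over both treatments without wild type acLDL replicate 2. The count above noise follows from the selection of the genes by level, while that p and the signs were read on the probe used for each gene. Of 60 such differences, 24 (none over 0.22 in size) changed sign in at least 1 alternative, 39 of 1120 values in all. The 3 differences with an unadjusted p under 0.05 did not. The second probes of Lamp3 and Napsa were outside this count. For acLDL in wild type both went the other way from the used probes. Their mean log2 intensity was 9.78 untreated and 9.73 with acLDL for Lamp3, and 11.74 and 11.67 for Napsa. Counts over all items moved, and the cause was not tested. They are given in the order acLDL in wild type, acLDL in KI, difference of effects, genotype untreated, genotype with acLDL and genotype over both, against 18, 2, 5, 1, 22 and 345. They were 5, 1, 2, 0, 5 and 2 without background correction, and 6, 1, 3, 0, 8 and 2 without a filter, where more items were tested. With the replicate number as a block they were 7, 2, 1, 0, 16 and 413. Whether same-numbered arrays shared more than a number is not known. Deviations of same-numbered arrays from group means correlated at 0.19 to 0.29 among wild type with acLDL, untreated KI and KI with acLDL. Between untreated wild type and those groups the correlation was -0.31 to -0.060. Among items above noise on all 8 arrays the KI count was 0 and the last 2 were 61 and 671. At 2 times the noise the KI count was 1 and the last 220. With an offset of 50 the last 2 were 53 and 661, and with a variance trend 59 and 705. With only the groups compared the untreated genotype count was 0 and that with acLDL 7. Leaving out each array in turn gave 1 to 30, 0 to 6, 1 to 4, 0 to 1, 2 to 15 and 0 to 598.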

Other observations

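Surfactant is taken up and degraded by alveolar macrophages, a step that depends on granulocyte-macrophage colony-stimulating factor. The list read for this step also held marker genes of alveolar macrophages, and Car4 in it is in the endothelial list too. Which cells the RNA came from was not tested. Of the 13 genes of the list with a probe, 7 were above noise on all 8 arrays, 2 on some and 4 on none. The 7 were Csf2ra, a chain of that factor's receptor (intensity 282 to 371), Pparg, a nuclear receptor (141 to 205), Car4 (1273 to 1860), Pla2g15, a lysosomal phospholipase (1672 to 2305), Abcg1, a cholesterol exporter (2745 to 4324), Lpl (1573 to 2703) and Krt79 (268 to 741). Csf2rb, the other chain of the receptor, Siglecf, Fabp4 and Fabp1 were above noise on none. Marco (14.2 to 82.9) and Itgax (-0.3 to 82.4) were above noise on 6 and 5 arrays and are among the genes tested. Of 9 genes tested, 0 were called in any of the 6 comparisons, beside 0.00982% to 3.39% of all items. The difference of acLDL effects was above 0 for 9 of 9, at a median log2 value of 0.30. The acLDL effect itself had a median of -0.21 in wild type (2 of 9 above 0) and 0.16 in KI (8 of 9). The 9 genes share arrays, so their signs are not independent, and no share of all items above 0 is given. The median difference of effects was 0.41 for 14 genes of the bone marrow-derived macrophage list (12 above 0, 0 called). It was -0.12 for the 10 surfactant and type II genes and -0.019 for all items.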
